A study of Rattus norvegicus with 9 samples.

Results

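Interleukin-6 signalling through gp130 was described here from the 4 rat genes that stand for its successive steps: Il6 (ENSRNOG00000010278), which encodes the cytokine, Il6st (ENSRNOG00000013963), which encodes the receptor subunit gp130, Stat3 (ENSRNOG00000019742), a transcription factor, and Socs3 (ENSRNOG00000002946), a feedback inhibitor. The genes were taken by these identifiers, and the choice was made with earlier results of these data known. Of the 4, 3 had a row among the 30560 genes of the table, and all 3 were among the 12192 genes tested, which averaged 1 TPM or more. The Socs3 identifier was absent from the rows analysed, so Socs3 has no value here. Whether Socs3 has a row under another identifier could not be checked, so its absence does not show a lack of expression. The table carries identifiers without names. The pairing of these identifiers with gene names comes from the list of members and was not checked against an annotation.

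HBZY-1 is an established rat cell line labelled as glomerular mesangial cells, the support cells between the capillaries of the kidney's filter. The 9 libraries of this line comprised 3 of a control group, 3 of an LPS-induced group and 3 of a group labelled with a high-dose water extract of lyophilized powder of the leech Poecilobdella manillensis. LPS (lipopolysaccharide) is a bacterial outer-membrane component that cells sense through Toll-like receptor 4. No label gives a dose, a duration, the medium of the control cells or whether the extract cells also received LPS, and all groups share the one line. The series calls the replicates biological and says nothing of separate culture days, so p-values measure the spread between these libraries. Markers of mesangial and other kidney cells were not analysed here, because identifiers were not paired with names.

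IL-6 is a cytokine of acute inflammation that binds its own receptor and then gp130, a subunit that also serves LIF, oncostatin M and IL-11. JAK kinases attached to gp130 phosphorylate STAT3, which moves into the nucleus and switches on target genes, among them Socs3, whose product binds gp130 and damps the signal. Cultured mesangial cells are known to release IL-6 under inflammatory stimuli. STAT3 activity is set by phosphorylation, which an mRNA level does not report.

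The promoter of Il6 is shown because Il6 had the widest range of the measured genes and because its window held matches to motifs of inflammatory transcription factors. The sequence is from RefSeq on the build GRCr8, at chr4:5894576-5894825 on the minus strand, and gives the 250 bases before the annotated start, written 5′ to 3′ in the direction of the gene. Capitals mark motif matches.
Il6 promoter: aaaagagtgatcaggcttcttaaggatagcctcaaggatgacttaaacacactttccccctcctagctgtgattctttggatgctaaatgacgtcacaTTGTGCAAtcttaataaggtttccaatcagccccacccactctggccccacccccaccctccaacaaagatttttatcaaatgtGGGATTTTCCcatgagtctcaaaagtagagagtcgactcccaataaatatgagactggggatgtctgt

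Both strands were searched for 4 motifs, and no match overlapped another. The NF-kB pattern GGGNNTTTCC had 1 match in the Il6 window, GGGATTTTCC, from 68 to 59 bases before the start. This pattern occurred in 1.3% of the 33469 promoter windows of the same length. The C/EBP pattern TTNNGNAA had 1 match, TTGTGCAA, from 152 to 145 bases before the start, and was far more common, at 37.2% of windows. The STAT pattern TTCNNNGAA, found in 7.67% of windows, and the AP-1 pattern TGANTCA, found in 6.34%, had 0 matches in the Il6 window. The Il6st window held 2 C/EBP matches and none of the other patterns. The Stat3 window and the Socs3 window held 0 matches. The starts used for Il6st, Stat3 and Socs3 lie inside the annotated gene model, by 11360, 154 and 1207 bases. These windows may therefore not cover the promoter in use, although the Stat3 window begins outside the model. A match is a run of letters and shows no binding.

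Il6 was highest in LPS cells, and in extract cells it was lower than in LPS cells but above control. In control libraries it stood at 21.0, 25.5 and 22.7 TPM (replicates 1 to 3). TPM states how many of every 1000000 transcript molecules in a library come from a gene, after correction for length. In LPS libraries Il6 stood at 174, 212 and 193 TPM. In extract libraries it stood at 38.5, 38.9 and 36.1 TPM. Every LPS library was above every extract library, and every extract library was above every control library.

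The mean of Il6 was 23.1 ± 2.27 TPM in control cells and 193 ± 19.4 TPM after LPS (SD, n = 3), an 8.37-fold rise. On the log2(TPM + 1) scale used for testing, which understates the changes of low genes, the LPS-control change was 3.01 ± 0.083 (SE, limma adjusted p = 1.44e-08). This was the 29th highest of the 12192 tested fold changes. Extract cells, at 37.8 ± 1.53 TPM, were 5.11-fold below LPS cells, a log2 change of -2.32 ± 0.083 (limma adjusted p = 5.36e-08), the 28th lowest of the tested genes. The extract level was not that of control: it was 1.64-fold higher, a log2 change of 0.69 ± 0.083 (limma adjusted p = 9.79e-05). In TPM, Il6 stood 170.0 above control in LPS cells and 14.8 above control in extract cells. The data are from bulk RNA, in which fewer cells expressing a gene and less RNA per cell cannot be told apart.

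Il6st, the gene of the shared subunit gp130, was about doubled in both LPS and extract cells. Its control libraries held 129.9, 121 and 129 TPM. Its LPS libraries held 294, 243 and 264 TPM. Its extract libraries held 271, 279.8 and 274 TPM. All 6 LPS and extract libraries were above all control libraries, and the extract values lay inside the range of the LPS values.

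Against the control mean of 126 ± 5.05 TPM, Il6st rose to 267 ± 25.7 TPM in LPS cells (SD, n = 3), a log2 change of 1.07 ± 0.062 (SE, limma adjusted p = 1.64e-06). In extract cells it rose to 275 ± 4.59 TPM, a log2 change of 1.11 ± 0.062 over control (limma adjusted p = 8e-07). These folds over control were 2.11 and 2.17. Extract and LPS cells did not differ past the threshold, with a log2 difference of 0.05 ± 0.062 (limma adjusted p = 0.555). Its 95% confidence interval ran from -0.09 to 0.18, so it holds small differences in either direction. The sign of this difference was not stable: it was -0.0026 after rescaling the libraries by the median of ratios and -0.02 without LPS replicate 2. Without LPS replicate 1 it was 0.12 (limma adjusted p = 0.0666).

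Stat3, the transcription factor that gp130 activates, had the smallest LPS-control change of the 3 genes and was highest in extract cells. It stood at 56.6, 54.9 and 58.4 TPM in the control libraries. It stood at 65.7, 63.8 and 64.2 TPM in the LPS libraries. It stood at 83.3, 80.5 and 82.1 TPM in the extract libraries. The 3 groups did not overlap, with control lowest and extract highest.

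The mean of Stat3 was 56.6 ± 1.79 TPM in the control group, 64.6 ± 0.96 TPM in the LPS group and 82.0 ± 1.42 TPM in the extract group (SD, n = 3). LPS cells were 1.14-fold above control, a log2 change of 0.19 ± 0.034 (SE, limma adjusted p = 0.00191). Extract cells were 1.27-fold above LPS cells, a log2 change of 0.34 ± 0.034 (limma adjusted p = 2.09e-05). They were 1.45-fold above control, a log2 change of 0.53 ± 0.034 (limma adjusted p = 2.05e-06). The small LPS-control change moved the most with the scaling of the libraries, to 0.28 after rescaling by the median of ratios (limma adjusted p = 0.000231).

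**Figure D1:**
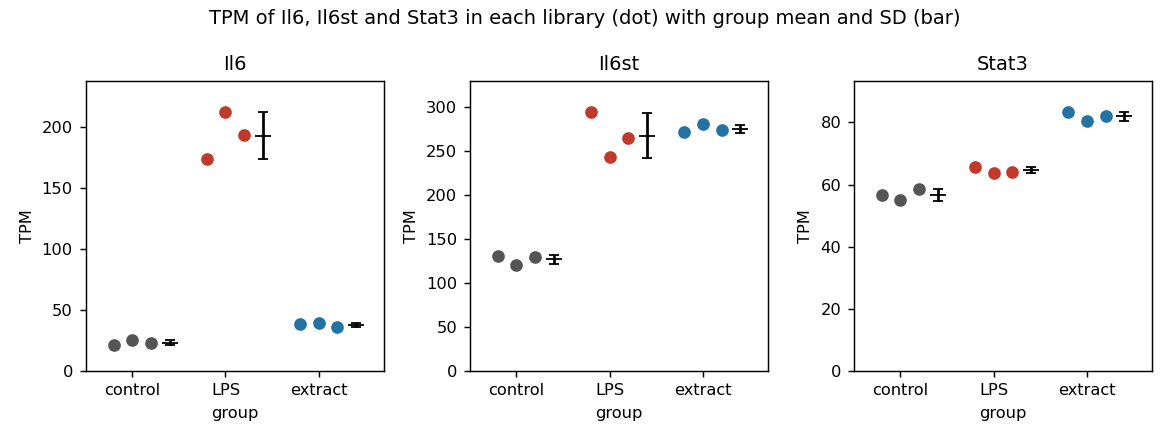
TPM (vertical axis, from 0, a separate scale for each gene) of Il6, Il6st and Stat3 in each library, by group; dots are replicates 1 to 3 from left to right, and the bar beside them is the mean with its SD. Il6 is high in the LPS libraries alone (174 to 212 TPM), Il6st is high in LPS and extract libraries, and Stat3 is lowest in control and highest in extract libraries.

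The 3 genes thus had 3 different courses over the groups, as the plot of TPM by library shows. In LPS versus control all 3 were called higher, where 40.7% of tested genes were called in either direction, and the groups did not overlap for any of the 3, as for 50.1% of tested genes. In extract versus LPS, 2 of 3 were called, Il6 lower and Stat3 higher, against 59.4% of tested genes, and the groups did not overlap for the same 2, against 65.1%. In extract versus control all 3 were called higher, against 51.7% of tested genes, with no overlap for the 3, against 61.1%. All these shares of tested genes count both directions, so they are not the shares called higher or lower alone. With backgrounds this high, being called is common, and the sizes of the changes separate the genes better. The median log2 change of the 3 genes was 1.07 in LPS versus control, where that of all tested genes was -0.08. It was 0.05 in extract versus LPS (all tested genes 0.04) and 0.69 in extract versus control (all tested genes -0.04). The comparisons share libraries and are not independent of each other.

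**Figure D2:**
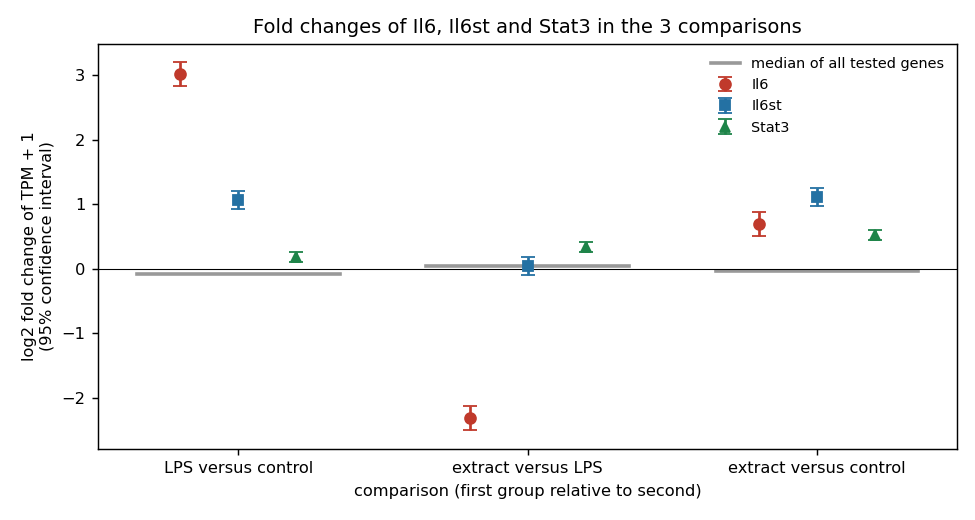
Log2 fold change of TPM + 1 (vertical axis) of Il6, Il6st and Stat3 in the 3 comparisons, with 95% confidence intervals; the grey bar is the median of all 12192 tested genes. Il6 goes from 3.01 in LPS versus control to -2.32 in extract versus LPS, where the interval of Il6st includes 0.

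Among all tested genes, the LPS-control change of Il6st ranked 186th from the top and that of Stat3 ranked 1367th. In extract versus control the ranks from the top were 165 for Il6st, 436 for Il6 and 757 for Stat3. In extract versus LPS, Il6st sat in the middle of the distribution, above 50.7% of tested genes, and Stat3 stood above 79.4%. By calls in the 3 comparisons, Il6 was higher with LPS, lower in extract than in LPS and higher in extract than in control. This course was that of 1.18% of tested genes, 144 in all with Il6 included. The course of Il6st (higher with LPS, no call between extract and LPS, above control in extract) was that of 199 genes, or 1.63%. The course of Stat3 (higher in LPS than in control, higher in extract than in LPS and in control) was that of 119 genes, or 0.976%.

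**Figure D3:**
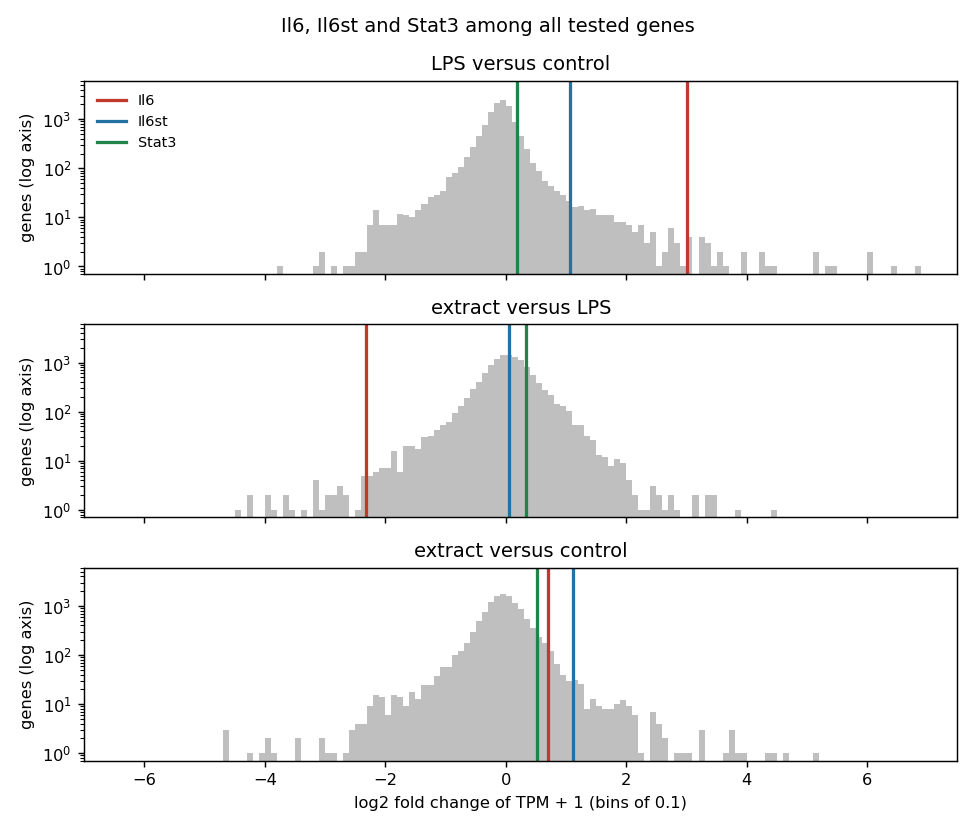
Number of tested genes (vertical log axis) by log2 fold change of TPM + 1 (horizontal axis, bins of 0.1) in the 3 comparisons, with coloured lines at Il6, Il6st and Stat3. Il6 lies in the upper tail in LPS versus control and in the lower tail in extract versus LPS, while Stat3 stays within the bulk of the distribution in all 3 panels.

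TPM is corrected for length, so levels can be compared between genes. In control libraries the order was Il6st, Stat3, Il6, at 126, 56.6 and 23.1 TPM, and the ranges of neighbouring genes did not overlap. In LPS libraries Il6 passed Stat3, giving Il6st, Il6, Stat3 at 267, 193 and 64.6 TPM, again without overlap. In extract libraries the order was that of control, at 275, 82.0 and 37.8 TPM, also without overlap. By mean TPM among the tested genes, Il6 ranked 5596th in control, 699th in LPS and 3813th in extract cells. Il6st ranked 1174th, 493rd and 499th, and Stat3 2668th, 2244th and 1834th.

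Ratios of TPM within a library do not depend on how libraries are scaled, so Il6 and Il6st were set against Stat3 in each library. Il6 was 0.372, 0.465 and 0.389 times Stat3 in control libraries, 2.65, 3.33 and 3.01 times in LPS libraries, and 0.462, 0.483 and 0.440 times in extract libraries. The LPS libraries stood apart from both others. For testing, the log2 ratio was taken of TPM + 1, which leaves some dependence on scaling. This log2 ratio differed by 2.82 for LPS minus control and by -2.66 for extract minus LPS. Each had an exact two-sided permutation p = 0.1, the smallest that 3 against 3 libraries allow. Between extract and control the difference was 0.17 (exact two-sided permutation p = 0.3). It was 0.11 without control replicate 1 and 0.26 without control replicate 2. The ratios of control and extract libraries thus overlapped, whereas their Il6 TPM did not. Stat3 itself was 1.45-fold higher in extract than in control cells, so the overlap does not show Il6 at its control level.

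For Il6st the ratio to Stat3 separated all 3 groups. It was 2.30, 2.20 and 2.20 in control libraries, 4.47, 3.8 and 4.12 in LPS libraries and 3.25, 3.48 and 3.34 in extract libraries. The log2 ratio, again of TPM + 1, was 0.88 higher in LPS than in control and 0.59 higher in extract than in control. It differed by -0.29 for extract minus LPS. Each difference had an exact two-sided permutation p = 0.1, the smallest possible here. So Il6st and Stat3 changed unequally in all 3 comparisons in these libraries, though the exact permutation test used for the ratios cannot pass 0.05 with 3 against 3.

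The transcript table resolved the 3 genes into isoforms, given by Ensembl transcript identifier. Il6 had 3 transcripts above 0, Il6st had 7 linked transcripts of which 3 passed the filter of 1 TPM, and Stat3 had 2 of which 1 passed. In LPS versus control, 6 of these 7 tested transcripts were called and all 6 were higher, where 23.0% of 19383 tested transcripts were called. In extract versus LPS, 4 of 7 were called, the 3 of Il6 lower and that of Stat3 higher, against 39.1%. In extract versus control 5 of 7 were called, all higher, against 32.0%. These shares of tested transcripts also count both directions.

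The main Il6 transcript, ENSRNOT00000013732, held 71.7% ± 2.45 of the gene's TPM in the control group, 77.1% ± 5.77 in the LPS group and 71.0% ± 11.3 in the extract group (SD, n = 3). It rose with LPS by 3.09 ± 0.14 on the log2 scale (SE, limma adjusted p = 2.91e-06). Against LPS cells, extract cells differed by -2.43 ± 0.14 (limma adjusted p = 4.83e-06). It was also 0.66 ± 0.14 higher in extract than in control cells (limma adjusted p = 0.0085). ENSRNOT00000103213 rose and fell with it, by 2.48 ± 0.35 (limma adjusted p = 0.00133) and -1.82 ± 0.35 (limma adjusted p = 0.00325). This transcript was uneven between replicates, at 29.9, 16.4 and 34.5 TPM in LPS and 4.78, 11.9 and 4.79 TPM in extract libraries. Its extract-control difference was not called, at 0.66 ± 0.35 (limma adjusted p = 0.193). That difference was 0.27 without extract replicate 2 (limma adjusted p = 0.516) and 0.42 with a pseudocount of 5 (limma adjusted p = 0.271).

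The smallest share of Il6 belonged to ENSRNOT00000104678, with 10.4% to 13.0% of the gene in control libraries, 7.91% to 9.44% in LPS libraries and 9.51% to 11.5% in extract libraries. Its share in LPS did not overlap with that in the other groups, but the highest LPS share nearly met the lowest extract share. Shares were not tested. The level of this transcript still rose with LPS, by 2.25 ± 0.11 (SE, limma adjusted p = 3.18e-06), and was -1.86 ± 0.11 in extract versus LPS (limma adjusted p = 4.25e-06). A pseudocount of 5 reduced the LPS-control change to 1.49. Its extract-control change of 0.40 ± 0.11 (limma adjusted p = 0.0225) was 0.20 with a pseudocount of 5. That call was lost without control replicate 1 (limma adjusted p = 0.0714), control replicate 2 (limma adjusted p = 0.0578) or extract replicate 2 (limma adjusted p = 0.0717).

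For Il6st, ENSRNOT00000109781 was the leading transcript, with a lower share in the control libraries than in the others. It made up 48.2% to 49.6% of the gene in control libraries, 54.8% to 58.6% in LPS libraries and 54.8% to 55.0% in extract libraries. Control libraries were below all others, and the extract values fell within the LPS range. Its level rose over control by 1.27 ± 0.060 (SE) in LPS cells (limma adjusted p = 2.91e-06) and by 1.27 ± 0.060 in extract cells (limma adjusted p = 2.04e-06). The extract-LPS difference was 0.0025 ± 0.060 (limma adjusted p = 0.982). Shares of transcripts were not tested. How often the shares of other transcripts separate by group was not computed, so the separation of shares is a description only.

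The next Il6st transcript, ENSRNOT00000105192, held 35.9% ± 1.91 of the gene in the control group, 31.2% ± 2.71 in the LPS group and 33.9% ± 2.06 in the extract group (SD, n = 3). It rose by 0.86 ± 0.061 (SE) with LPS (limma adjusted p = 3.24e-05) and by 1.02 ± 0.061 in extract versus control (limma adjusted p = 7.63e-06). Its extract-LPS difference of 0.16 ± 0.061 was not called (limma adjusted p = 0.0673), but was called at 0.22 without LPS replicate 1 (limma adjusted p = 0.02). It was smaller without LPS replicate 3, at 0.11 (limma adjusted p = 0.193), and after rescaling, at 0.11 (limma adjusted p = 0.225). The third, ENSRNOT00000114610, averaged 19.1 ± 2.80 TPM over the control libraries, 32.7 ± 10.2 TPM over the LPS libraries and 30.8 ± 6.09 TPM over the extract libraries. None of its differences was called, with limma adjusted p = 0.0553 in LPS versus control and limma adjusted p = 0.0589 in extract versus control. The LPS-control difference was called without LPS replicate 2 (limma adjusted p = 0.0141) and after rescaling (limma adjusted p = 0.0362). The extract-control difference was called without LPS replicate 1 (limma adjusted p = 0.0334), without LPS replicate 2 (limma adjusted p = 0.0231) and after rescaling (limma adjusted p = 0.0425). The other 4 linked Il6st transcripts reached at most 0.27 TPM in any library.

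Stat3 came almost wholly from ENSRNOT00000026760, which made up at least 99.5% of the gene in every library. Its log2 changes, 0.19, 0.34 and 0.53 in LPS versus control, extract versus LPS and extract versus control, were close to those of the gene, and the first was likewise 0.28 after rescaling. The second Stat3 transcript reached at most 0.24 TPM.

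**Figure D4:**
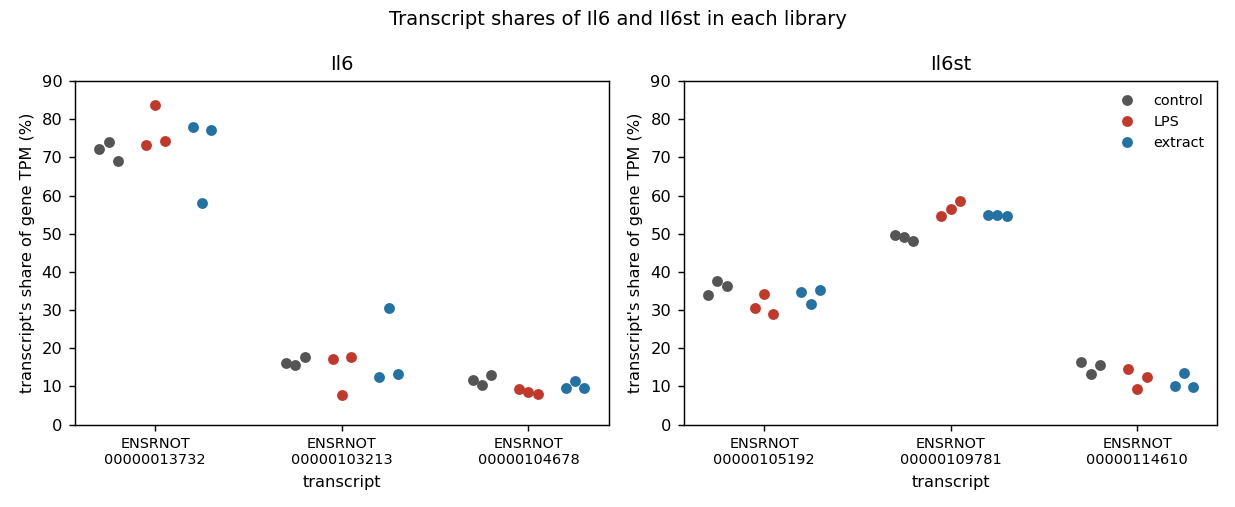
Share of the gene's TPM (vertical axis, percent, from 0) held by each tested transcript of Il6 and Il6st (horizontal axis); dots are libraries, coloured by group, replicates 1 to 3 from left to right. For Il6st, the share of ENSRNOT00000109781 is lower in control (48.2% to 49.6%) than in all LPS and extract libraries, and for Il6 the extract library with the lowest share of ENSRNOT00000013732 (58.0%) has the highest share of ENSRNOT00000103213 (30.6%).

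The tested genes most like each member were sought by Pearson's r over the 9 libraries on the log2(TPM + 1) scale. As the libraries fall into 3 groups, such an r mostly reflects the group means, and it is given as a description. At r of 0.95 or more stood 100 genes for Il6, 81 for Il6st and 110 for Stat3. The closest to Il6st was ENSRNOG00000011796 (r = 0.9982), whose mean was 146 ± 7.31 TPM for control, 278 ± 15 TPM for LPS and 288 ± 3.45 TPM for extract libraries (SD, n = 3). The closest to Il6 was ENSRNOG00000004226 (r = 0.9955), at 24.2 ± 1.3, 52.9 ± 2.90 and 27.6 ± 0.15 TPM in the same order. Its rise with LPS was smaller, at 1.10 on the log2 scale, so the likeness is in the shape over groups and not in the size. The files pair neither identifier with a gene name.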

How the data were processed

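Gene and transcript TPM were deposited by the authors in 1 table each, rounded to 2 decimals. Per the submitters' processing notes, the tools were RSEM 1.3.3, HISAT2 2.1.0 and fastp, with no roles given. Build, annotation and strandedness: not given in the sources used here. TPM keeps no depth, so depth is unknown and precision rests on 3 libraries a group. Columns were matched to libraries by title.

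Genes (12192) and transcripts (19383) averaging 1 TPM or more were fitted as log2(TPM + 1) with limma 3.58.1 in R 4.3.3: all 9 libraries, a mean per group, a mean-variance trend, two-sided tests, 6 residual degrees of freedom. P-values were Benjamini-Hochberg adjusted over all features, and called below 0.05. The procedure was also run on simulated data in which far fewer genes changed than were called here. That run does not give the error rates in these data. Transcripts were linked to a gene where consecutive values summed to its TPM in every library within 0.006 TPM per rounded value. Transcripts at 0 next to Il6 could not be assigned. The members, lists and tests were chosen with earlier results of these data known.

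Named genes were the members in order of role, then the non-member with the highest r for each member, at most 2 that were higher with LPS. The RefSeq table (GRCr8, 47357 genes) matched 0 of 30560 identifiers, so other pathway genes and the cell type markers were not analysed here. Promoters (RefSeq, GRCr8) were matched by symbol for 4 of 4 members. Alternatives were pseudocounts of 0.1 and 5, no filter or 5 TPM, 2 other scalings, a replicate block, 2-group fits, no trend, and each library left out.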

Additional observations from a re-analysis of the deposited data

How the results depend on the processing

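Each fold change of Il6, Il6st and Stat3 was recomputed under 18 alternatives, 9 of which left out a library. The 8 called changes kept their direction and their call under all 18. The largest adjusted p among them was 0.0081, for Stat3 in LPS versus control. The uncalled extract-LPS difference of Il6st changed sign after median-of-ratios scaling (-0.0026) and ran from -0.021 to 0.12 with 1 library left out. Its adjusted p ranged from 0.0666 to 0.975. Counts of called genes stayed within 1.5 times. Among transcripts, uncalled extract-LPS differences changed sign for ENSRNOT00000109781 (-0.047 after median-of-ratios scaling, -0.066 to 0.0496 with 1 library left out) and ENSRNOT00000114610 (-0.30 to 0.16). The cause was not tested. With the replicate block, Il6 changed by 3.01 in LPS versus control (adjusted p = 1.37e-07) and -2.32 in extract versus LPS (adjusted p = 4.45e-07), and no call of the 3 genes or their transcripts changed. The block gave 4658 called genes in LPS versus control (4962 without it). It gave 7072 for extract against LPS (7240 without it) and 6070 for extract against control (6298 without it). The SE of the Il6 changes was 0.0587 with the block and 0.0826 without it. Deviations from the group means correlated between -0.055 and 0.095 for same-numbered libraries, and between -0.11 and 0.089 for libraries of different number. Of the 9 libraries, 6 were closest to one of their own number. Whether the numbers mark a pairing was not tested. Alternatives for Socs3 were not run, as it had no value. Without depth, the counting error of the low transcripts is unknown.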

Other observations

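Within the LPS group, replicate 2 had the highest Il6 value (212 TPM) and the lowest Il6st value (243 TPM), and replicate 1 had the lowest Il6 (174 TPM) and the highest Il6st (294 TPM). With 3 libraries this order was not tested. The coefficient of variation between LPS libraries was 10.04% for Il6 and 9.62% for Il6st, above the median of 5.80% over all tested genes, and 1.49% for Stat3. In extract libraries it was 4.06% for Il6, 1.67% for Il6st and 1.74% for Stat3, below the median of 4.67%. In control libraries it was 9.83% for Il6, 4.0% for Il6st and 3.15% for Stat3, against a median of 5.17%. No other gene of the table had values identical to Il6, Il6st or Stat3 in every library, so none was listed as a copy of them.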
